A study of Mus musculus with 14 samples.

Results

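The nuclear genes for the oxidative phosphorylation machinery were followed across 14 mouse embryonic stem (ES) cell lines. Members were all genes of the expression table whose symbol starts with Nduf followed by a, b, c, s or v, equals Sdha to Sdhd, or starts with Uqcr, Cox4 to Cox8 or Atp5. The rule took 92 of the 23298 genes in the table, and 89 of them had a mean of at least 10 over the 14 lines. Of these 89 genes, 38 carry a complex I name (Ndufa4l2, a paralog of Ndufa4, among them), 4 for complex II, 8 for complex III, 14 for complex IV and 15 for complex V. The other 10 are Ndufaf assembly factors, the supercomplex factor Cox7a2l, and Atp5s and Atp5sl, which the rule takes by name although they are not standing subunits.

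The lines came from reciprocal crosses of C57BL/6J (B) and CAST/EiJ (C) mice, with the maternal strain written first. They comprised 3 BC XX, 3 BC XY, 2 BC XO, 3 CB XX and 3 CB XY lines. Each line was derived from a single blastocyst and is thus 1 independent line, and all were grown in serum with leukaemia inhibitory factor (LIF) on inactivated fibroblast feeders that were depleted before RNA was taken. No treatment separated the groups, so that the comparisons concern sex chromosome complement and direction of the cross.

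Oxidative phosphorylation couples electron transport along the inner mitochondrial membrane to ATP synthesis. Complexes I and II feed electrons from NADH and succinate into ubiquinone, complex III passes them to cytochrome c, complex IV reduces oxygen, and complex V (ATP synthase) uses the proton gradient to make ATP. Most subunits are encoded in the nucleus and a core set in mitochondrial DNA, and no symbol of the mitochondrially encoded set was found in the table. Undifferentiated ES cells also draw strongly on glycolysis, and XX ES cells keep both X chromosomes active until they differentiate.

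Values are reads per gene after a scaling factor for each line that the authors applied, and are called scaled reads here. Low values in a line fall on multiples of 1 step, taken as the value of 1 read, and in these steps the lines held 11904334 to 69645408 reads assigned to genes. All 13 ES cell markers on the list, Pou5f1 and Nanog among them, were above 0 in every line. Several lines stood apart. The summed level of 26 mesenchymal markers, which the feeder fibroblasts would also express, was 194379 to 420252 scaled reads in the BC XX lines and 66211 to 116415 in all other lines. The 4 Y-linked genes checked summed to only 54.0 scaled reads in CB XY 2 and 226 in CB XY 3, both XY by label, against 2107 to 4640 in the other XY lines and 82.4 to 1659 in the XX lines. Called members and named genes are therefore also given without CB XY 2 and CB XY 3, and those of the BC cross without BC XX 3. Fewer cells of a type and less RNA per cell cannot be told apart in such bulk samples.

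As a set the members took up between 0.898% (BC XX 3) and 1.22% (BC XY 1) of the scaled reads of a line. Compared per kilobase of transcript, the highest mean level in complex V belonged to Atp5b, the catalytic beta subunit of ATP synthase, at 28528 scaled reads per kilobase. Cox4i1, a structural subunit of complex IV, led its complex at 12959 scaled reads per kilobase. Ndufa4, named for complex I and later assigned to complex IV, had 9360, the hinge protein gene Uqcrh of complex III 7666, and Sdhd, a membrane anchor of complex II, 2877 scaled reads per kilobase. The median member of complexes I to V stood at 1706, 2202, 4241, 5392 and 6242 scaled reads per kilobase, in that order. Members of a complex thus differed in RNA level per kilobase, but how far depends on the transcript used for each gene. Uqcrq, the lowest of complex III at 918, had 3446 scaled reads per kilobase on its shortest transcript.

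Variation between lines differed from member to member. The standard deviation over the 14 lines on the log2(value + 5) scale had its smallest value, 0.12, in Ndufaf2, a complex I assembly factor that ranged only from 413 to 540 scaled reads. The largest, 2.11, belonged to Ndufs5, an accessory subunit of complex I. In 8 of the 14 lines Ndufs5 had between 0.00386 and 0.182 scaled reads. Its other values were 12.2 in BC XX 2, 34.9 in BC XO 2, 84.0 in CB XX 1, 48.9 in CB XX 2, 273 in CB XY 1 and 107 in CB XY 3. Values under the worth of 1 read may be failed estimates, and no fold change is given for this gene.

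The first comparison asked how the members differ with the number of X chromosomes. In the 6 XX against the 6 XY lines 3 of 87 members tested rose in XX lines and 0 fell, and these 3 were the X-linked members Cox7b, Ndufb11 and Ndufa1. Over all 15311 genes tested, 5.21% were called, 3.21% upwards and 1.99% downwards. None of the 84 autosomal members tested passed the threshold in this fit, and 7 of them had an unadjusted p under 0.05 with limma. Counts at an unadjusted p, here and below, stand without the share over all genes and do not show an excess. The fit has no term for the cross. With the cross as a covariate 4 members were called, beside 1697 genes in all against 797 without it. The fourth was the autosomal Atp5sl (log2 fold change -0.48 ± 0.15 SE, limma adjusted p = 0.0488), which had an adjusted p of 0.130 without the cross term and of 0.343 without CB XY 2 and CB XY 3. The median log2 fold change was -0.02 over the autosomal members and -0.03 over all genes tested. Among all 564 X-linked genes tested, 226 were called higher and 1 lower in XX lines, and the median was 0.65 on the log2 scale, close to the values of the 3 members.

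Cox7b encodes a small structural subunit of complex IV and lies at chrX:103211039-103217789 of mm9. Its values were 11363, 8367 and 7357 scaled reads in the BC XX lines and 10754, 10336 and 10153 in the CB XX lines. The BC XY lines had 7132, 5502 and 5788, the CB XY lines 5217, 4021 and 5408, and the BC XO lines 5294 and 5828. Every XX line was thus above every XY and XO line. The mean was 9722 ± 1533 scaled reads in XX lines (SD, n = 6) and 5511 ± 1002 in XY lines (SD, n = 6), a 1.77-fold difference (log2 fold change 0.82 ± 0.14 SE, limma adjusted p = 0.00545).

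Ndufb11, an accessory subunit of the membrane arm of complex I, lies at chrX:20192452-20194745. It reached 2730, 2027 and 1538 scaled reads in the BC XX lines and 2530, 2310 and 2338 in the CB XX lines. In the BC XY lines it stood at 1575, 1278 and 1539, in the CB XY lines at 1509, 1137 and 1298, and in the BC XO lines at 1414 and 1670. Only BC XX 3 fell inside the range of the XY lines. The log2 fold change of XX against XY lines was 0.68 ± 0.14 SE (limma adjusted p = 0.0171).

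Ndufa1, a further accessory subunit of the membrane arm, lies at chrX:34727583-34731158. Its values were 1506, 1086 and 802 scaled reads in BC XX, 1492, 1314 and 1121 in CB XX, 681, 697 and 855 in BC XY, 687, 744 and 833 in CB XY, and 750 and 699 in BC XO lines. Again BC XX 3 alone of the XX lines overlapped with XY lines. The log2 fold change was 0.67 ± 0.16 SE (limma adjusted p = 0.0238), and this call was lost when BC XX 1, BC XY 2, CB XX 2, CB XY 1 or CB XY 2 was left out, with the highest adjusted p, 0.0646, without BC XX 1.

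**Figure D1:**
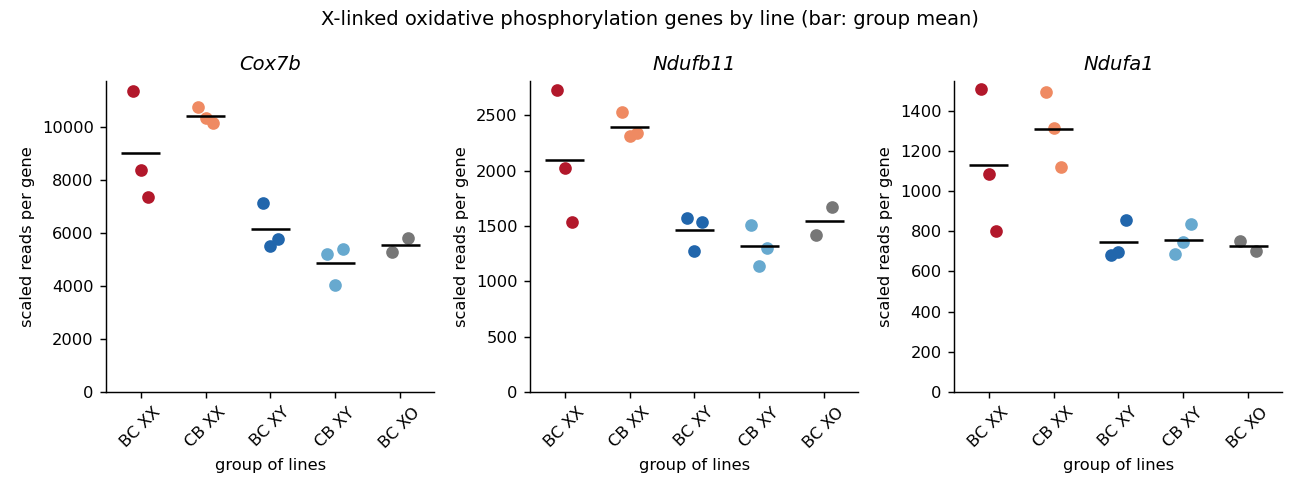
Scaled reads per gene (y axis, from 0) of Cox7b, Ndufb11 and Ndufa1 in each of the 14 lines, grouped by cross and sex chromosome complement (x axis), with each point 1 line and each bar a group mean. For Cox7b the lowest XX line, BC XX 3 at 7357, lies above the highest XY line at 7132, and for the other 2 genes BC XX 3 lies within the XY range.

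Leaving out CB XY 2 and CB XY 3, whose Y-linked RNA was low, kept the direction of all 3 genes and left Cox7b called (log2 fold change 0.71, adjusted p = 0.0307). Ndufa1 (0.71, adjusted p = 0.0767) and Ndufb11 (0.59, adjusted p = 0.0935) then missed the threshold. With a correction for the GC content of each transcript Ndufb11 remained called (adjusted p = 0.0106), whereas Cox7b (log2 fold change 0.61, adjusted p = 0.0545) and Ndufa1 (0.56, adjusted p = 0.0866) missed the threshold with somewhat smaller differences.

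Within the crosses 2 of the 3 genes passed the threshold in CB lines and none in BC lines. In CB lines Cox7b (log2 fold change 1.10 ± 0.17 SE, limma adjusted p = 0.00495) and Ndufb11 (0.87 ± 0.19 SE, adjusted p = 0.0241) rose, 2 of 89 members, where 3.57% of all 16263 genes were called (2.11% upwards and 1.46% downwards), and 0 members fell. Ndufa1 had a log2 fold change of 0.78 ± 0.21 SE (adjusted p = 0.0541). The Ndufb11 call was also lost without CB XX 1, CB XX 2, CB XY 1, CB XY 2 or CB XY 3 alone (adjusted p up to 0.103). Both missed the threshold without CB XY 2 and CB XY 3 together, at log2 fold changes of 1.00 for Cox7b (adjusted p = 0.0900) and 0.66 for Ndufb11 (adjusted p = 0.352), and Ndufa1 had 0.92. In that fit 1 CB XY line remains and is assumed to vary like the other groups, and the calls over all genes went from 581 to 133. In BC lines the log2 fold changes of XX against XY were 0.54, 0.48 and 0.56 for Cox7b, Ndufb11 and Ndufa1. None passed the threshold (limma adjusted p = 0.0786, 0.150 and 0.128). Without BC XX 3 the values in BC lines were 0.68, 0.69 and 0.78, and again none passed (limma adjusted p = 0.0761, 0.0761 and 0.0654). The interaction of complement and cross did not reach the threshold for any of the 3 genes (adjusted p = 0.498 for Cox7b, 0.729 for Ndufb11 and 0.876 for Ndufa1).

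The XO lines carry a single X chromosome without a Y chromosome. BC XX lines were above BC XO lines by log2 0.68 for Cox7b, 0.41 for Ndufb11 and 0.59 for Ndufa1. None passed the threshold (limma adjusted p = 0.0580, 0.265 and 0.142). Without BC XX 3 these were 0.81, 0.61 and 0.82, also without passing (limma adjusted p = 0.0745, 0.158 and 0.0927). Of the 89 members 0 were called between BC XX and BC XO lines, where 4.67% of all genes were called by limma (3.06% upwards and 1.6% downwards), and 16 members had an unadjusted p under 0.05. Without BC XX 1, 7 members were called, beside 991 of all 16232 genes. Between BC XO and BC XY lines 0 members and 0.00615% of all genes (1 gene) were called with limma, and 1 member had an unadjusted p under 0.05. There Cox7b, Ndufb11 and Ndufa1 had log2 fold changes of -0.14, 0.08 and -0.03.

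In the BC cross only 1 of the 89 members, Atp5g2, passed the threshold, and it was lower in XX lines, beside 5.71% of all genes called (4.47% upwards and 1.24% downwards). The median log2 fold change of BC XX against BC XY lines was -0.18 over the 89 members and -0.04 over all genes, and 22 of the 89 members had a positive value. Without BC XX 3 the members' median was -0.04, with 38 positive values and 0 members called. With the mesenchymal marker level as a covariate it was also -0.04, with 39 positive values.

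Atp5g2 is 1 of 3 genes for subunit c, which forms the rotating ring of ATP synthase, and lies at chr15:102493299-102501478 of mm9. Its values were 5364, 3749 and 2871 scaled reads in the BC XX lines and 6673, 6349 and 6675 in the BC XY lines, so that the groups did not overlap. The BC XO lines had 6099 and 6266, the CB XX lines 5179, 5075 and 5103, and the CB XY lines 7283, 5037 and 4954. The log2 fold change in the BC cross was -0.76 ± 0.20 SE (limma adjusted p = 0.0377). With the mesenchymal marker level as a covariate the log2 fold change was -0.53 ± 0.35 SE (adjusted p = 0.702). That level does not overlap between BC XX and BC XY lines, and the calls over all genes went from 928 to 8 in this fit, so that complement and mesenchymal level cannot be told apart in the BC cross. The Atp5g2 call was lost without BC XX 2, BC XX 3, any BC XY line or either BC XO line, with the highest adjusted p, 0.160, without BC XX 3 (log2 fold change -0.55), and kept without CB XY 2 and CB XY 3 (adjusted p = 0.0408).

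The 3 genes for subunit c encode the same mature protein from diverged coding sequences, which bears on whether reads can be told apart. A stretch of 60 coding bases within the mature part is shown for each from the NCBIM37 (mm9) transcripts, 5′ to 3′, with positions that differ between the genes in capitals.
Atp5g1: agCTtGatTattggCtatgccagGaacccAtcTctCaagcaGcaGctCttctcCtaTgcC
Atp5g2: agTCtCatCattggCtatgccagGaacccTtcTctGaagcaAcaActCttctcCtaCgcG
Atp5g3: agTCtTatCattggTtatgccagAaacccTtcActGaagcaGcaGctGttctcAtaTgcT
Over the last 228 coding bases Atp5g1 and Atp5g2 were identical at 194 positions (85.1%), Atp5g1 and Atp5g3 at 182 (79.8%) and Atp5g2 and Atp5g3 at 179 (78.5%). The longest identical run between any pair was 21 bases, shorter than a sequencing read. Processed copies elsewhere in the genome were not examined.

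Only Atp5g2 of the 3 genes was called in the BC cross. Atp5g3 stood at 5546, 5343 and 5880 scaled reads in BC XX and 6227, 6938 and 5947 in BC XY lines. Atp5g1 stood at 5931, 4304 and 2505 in BC XX and 5810, 5417 and 3327 in BC XY lines. Per kilobase Atp5g2 and Atp5g3 had means of 8465 and 8877 scaled reads. Atp5g1 had 1087 on its transcript of 4715 bases and 8596 on the shortest transcript with the same coding sequence, so that its place in this order depends on the transcript.

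The interaction of complement and cross was called for 0 of 89 members (9 with an unadjusted p under 0.05, limma) and for 0.0738% of all genes (0.0184% upwards and 0.0553% downwards). The median difference between the crosses in their XX against XY log2 fold changes was 0.30 over the members, with 82 of 89 above 0, and 0.02 over all genes, with 8524 of 16263 above 0. The members' medians within the crosses were -0.18 in BC and 0.10 in CB lines, and the latter turned to -0.06, with 37 of 89 above 0, without CB XY 2 and CB XY 3. All members were measured in the same lines and are not independent. Without BC XX 3 the members' median was 0.18, and without CB XY 2 and CB XY 3 it was 0.16. The 76 mitochondrial ribosomal protein genes, another set of short nuclear genes for mitochondria, had a median of 0.21.

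BC XX 3 was the line in which the members stood furthest from the others. On the log2(value + 5) scale, the deviation of each member from its own mean over the 14 lines had a median of -0.23 in BC XX 3, while the other 13 lines had medians between -0.11 and 0.21. The interquartile range was 0.84 in BC XX 3 and 0.19 to 0.45 in the others. In BC XX 3, 32 of 89 members lay more than 0.5 below their mean and 0 more than 0.5 above it.

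These deviations followed the GC content of the transcripts. All tested genes were split into 5 bins of equal size by GC content. Among members in the lowest bin (under 44.97% GC, 13 members), the median deviation in BC XX 3 was 0.09. It was -0.65 in the next to highest bin (52.9% to 56.5% GC, 25 members) and -1.15 in the highest (above 56.5% GC, 14 members). All tested genes showed the same gradient in this line, from 0.37 to -0.77. Spearman's rho between deviation and GC content over the 89 members, which share libraries and are not independent, was -0.75 in BC XX 3, -0.50 in BC XX 2, -0.26 in BC XX 1, and 0.62 in CB XY 1 and in BC XO 1. Negative values were not confined to BC XX lines, with -0.39 in CB XX 3, -0.33 in BC XY 1 and -0.16 in CB XX 2. The remaining lines had 0.02 to 0.47. CB XY 1 had the gradient opposite to that of BC XX 3, with member medians of -0.24 in the lowest and 0.51 in the highest bin.

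**Figure D2:**
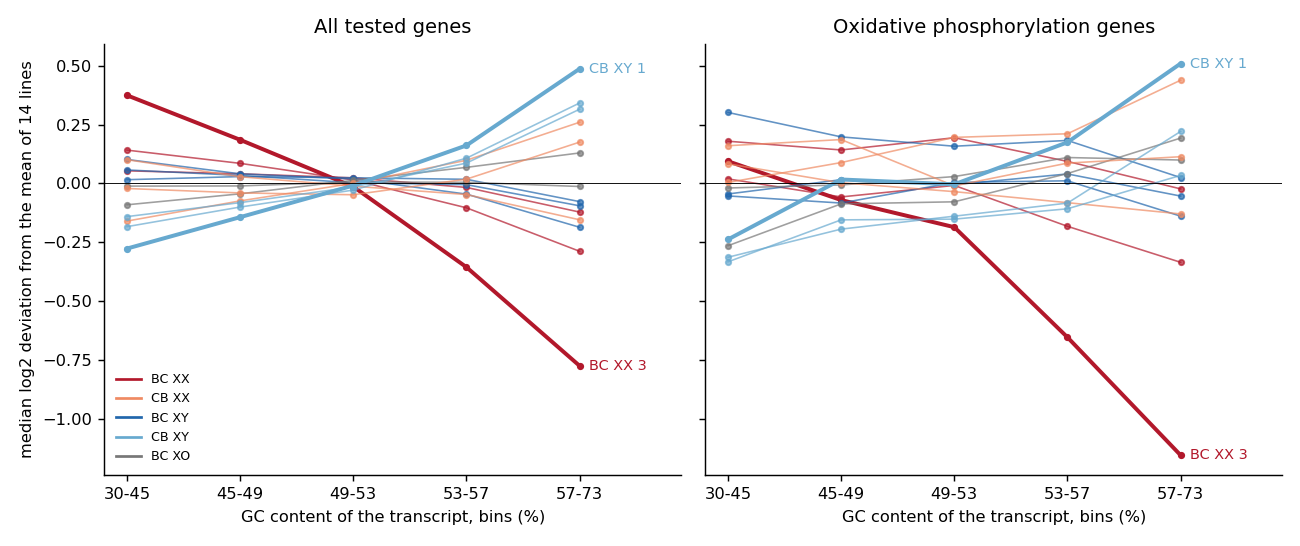
Median log2 deviation from the mean of the 14 lines (y axis) in 5 bins of transcript GC content in percent (x axis), for all tested genes (left) and for the members (right), with 1 line of the plot per cell line coloured by group. BC XX 3 falls from 0.37 to -0.77 over all genes and from 0.09 to -1.15 over the members, and CB XY 1 rises from -0.28 to 0.49 and from -0.24 to 0.51.

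The sequences of the members at both ends of BC XX 3 make the contrast visible. The first 60 coding bases are shown 5′ to 3′ from the NCBIM37 transcripts with G and C in capitals. Ndufb7 (chr8:86090570-86095525, plus strand) and Ndufs7 (chr10:79711866-79719539, plus strand), subunits of complex I, had the lowest deviations of all members in BC XX 3, at -1.93 and -1.88. Uqcrb (chr13:67001553-67006314, minus strand), a subunit of complex III that helps hold ubiquinone, and Atp5s (chr12:70825949-70845645, plus strand) had the highest, at 0.36 and 0.33.
Ndufb7: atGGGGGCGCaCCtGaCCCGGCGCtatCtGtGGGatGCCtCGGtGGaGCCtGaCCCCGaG
Ndufs7: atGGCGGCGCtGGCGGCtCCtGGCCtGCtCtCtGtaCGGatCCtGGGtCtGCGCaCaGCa
Uqcrb: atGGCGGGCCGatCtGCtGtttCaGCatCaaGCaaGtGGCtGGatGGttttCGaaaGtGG
Atp5s: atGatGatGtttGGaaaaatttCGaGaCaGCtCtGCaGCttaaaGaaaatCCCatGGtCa
The number of G and C bases in these stretches was 42, 41, 32 and 23. Over whole transcripts the GC content was 59.7% for Ndufb7, 59.6% for Ndufs7, 42.2% for Uqcrb and 39.0% for Atp5s.

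Ndufb7 had 930, 725 and 256 scaled reads in the BC XX lines, 839, 776 and 821 in BC XY, 1320 and 1029 in BC XO, 1585, 1266 and 1051 in CB XX and 2011, 1370 and 1201 in CB XY lines. BC XX 3 was the lowest and CB XY 1 the highest of all. Uqcrb had 3906, 3359 and 4178 in BC XX, 4370, 3478 and 3161 in BC XY, 2714 and 3134 in BC XO, 3093, 3685 and 4215 in CB XX and 2765, 2112 and 2443 in CB XY lines. For Uqcrb, BC XX 3 was among the highest lines and CB XY 1 among the lower ones, the reverse of Ndufb7.

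**Figure D3:**
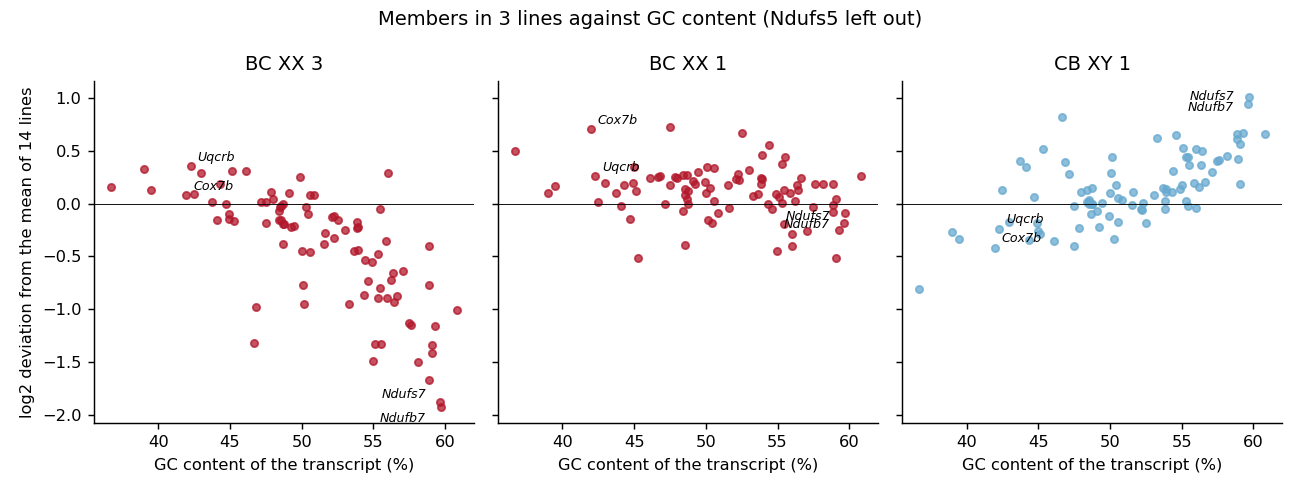
Log2 deviation of each member from its mean over the 14 lines (y axis) against the GC content of its transcript in percent (x axis) in BC XX 3, BC XX 1 and CB XY 1, with each point 1 gene and Ndufs5 left out. Points fall with GC content in BC XX 3 (Spearman's rho over all 89 members -0.75), little in BC XX 1 (-0.26) and rise in CB XY 1 (0.62).

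The spread of the deviations within BC XX 3 went less with transcript length than with GC content. The members are short, with a median transcript of 955 bases against 2792 over the 15172 tested genes that have a transcript, and 72 of the 89 fall in the shortest of 5 bins of equal size. In that bin the median deviation in BC XX 3 was -0.24 over the members and -0.22 over all genes. In the next longer bin (8 members) it was -0.20 over the members and -0.08 over all genes. In the bin after that (5 members) it was -0.38 and -0.01. Spearman's rho between deviation and length over the members was 0.17 in BC XX 3. Removing a smooth trend with GC content within each line narrowed the members' interquartile range in BC XX 3 from 0.84 to 0.40, and removing a trend with length narrowed it to 0.77. The median in BC XX 3 moved from -0.23 to 0.00 with the length correction and to -0.40 with the GC correction, after which 26 members still lay more than 0.5 below their mean. The share of all genes that far below is not given. Both corrections also move the median of all genes. For BC XX against BC XY lines that median went from -0.04 to -0.09 with the length and -0.11 with the GC correction. Cox7c, a subunit of complex IV that was not chosen by the naming rule but for this value, had 46.7% GC and a deviation of -1.32. The mesenchymal sum was also highest in this line, and its part in these deviations was not tested.

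The comparison of the crosses, of XX and XY lines without the XO lines, called the most members. Against the BC lines, CB lines had 7 members higher and 4 lower among 89, where 16.0% of all 16263 genes were called (9.22% upwards and 6.81% downwards), so that the members' share (11 of 89) was not above that of all genes. The median log2 fold change was 0.01 over the members and -0.01 over all genes. Higher in CB lines were Ndufs7, Ndufb7, Uqcrq, Atp5d, Ndufab1, Uqcrc1 and Cox6a1, and lower were Uqcrh, Atp5h, Ndufs4 and Uqcrc2.

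Those called higher in CB lines had a median GC content of 58.8% and those called lower one of 47.1%. Ndufs7, which holds an iron-sulfur cluster in the core of complex I, had 567, 447 and 172 scaled reads in BC XX, 653, 524 and 473 in BC XY, 668 and 781 in BC XO, 1168, 1091 and 585 in CB XX and 1248, 742 and 829.5 in CB XY lines. Among CB lines CB XX 3 alone fell within the range of the BC XX and BC XY lines, and CB XY 2 also lay below BC XO 2. Its log2 fold change was 1.05 ± 0.27 SE (limma adjusted p = 0.0197). Ndufb7 followed with 1.03 ± 0.25 SE (adjusted p = 0.0173), and every CB line was above every BC XX and BC XY line. With the GC correction these values were 0.55 (adjusted p = 0.109) and 0.53 (adjusted p = 0.0924).

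Ndufab1, the mitochondrial acyl carrier protein that is also a complex I subunit, differed from these in having 45.3% GC. It had 704, 684 and 901 scaled reads in BC XX, 1017, 848 and 744 in BC XY, 880 and 997 in BC XO, 1166, 1552 and 925 in CB XX and 1452, 1471 and 1292 in CB XY lines. Only CB XX 3 lay within the BC range. The log2 fold change was 0.67 ± 0.14 SE (limma adjusted p = 0.00891) and rose to 0.89 with the GC correction (adjusted p = 0.00342). It was the only member also called with the mesenchymal covariate (0.75, adjusted p = 0.0260), but missed the threshold without CB XY 2 and CB XY 3 (0.70, adjusted p = 0.0584).

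Uqcrh, an acidic subunit of complex III next to cytochrome c1, was lower in CB lines. Its values were 4768, 4637 and 4933 scaled reads in BC XX, 5637, 4174 and 4608 in BC XY, 4087 and 4728 in BC XO, 3451, 3203 and 3849 in CB XX and 3825, 3421 and 3383 in CB XY lines. Every CB line was below every BC line. The log2 fold change was -0.44 ± 0.10 SE (limma adjusted p = 0.0113) and -0.33 with the GC correction (adjusted p = 0.0574).

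Among the other members called, Uqcrq of complex III (log2 fold change 0.69 ± 0.18 SE, limma adjusted p = 0.0226) stayed past the threshold with the GC correction (0.80, adjusted p = 0.0300). Atp5d, the delta subunit of ATP synthase (0.69), the complex III core protein Uqcrc1 (0.54, named after its value was seen) and the ubiquitous complex IV subunit Cox6a1 (0.46) did not, with GC-corrected values of 0.22, 0.22 and 0.03. Atp5h, a stator subunit of ATP synthase (-0.34), Ndufs4 of complex I (-0.32) and the core protein Uqcrc2 (-0.29) likewise missed it at -0.25, -0.06 and -0.05. In all, 2 of the 11 members called stayed called with the GC correction, and Ndufa3 and Ndufb2 were added. None of the 11 stayed called when CB XY 2 and CB XY 3 were left out, where the calls over all genes went from 2607 to 480. In that fit CB XY 1 alone stands for the CB XY lines, and it had the highest Ndufs7 and Ndufb7 values of all lines. The 11 members kept their direction, with log2 fold changes of 1.27 for Ndufs7, 1.25 for Ndufb7, 0.77 for Atp5d and for Uqcrq. Those of Uqcrh, Atp5h, Ndufs4 and Uqcrc2 were -0.38, -0.31, -0.26 and -0.28. Every member called higher had a larger change than with all lines, and every one called lower a smaller change. The part of the GC gradient of CB XY 1 in this was not tested.

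**Figure D4:**
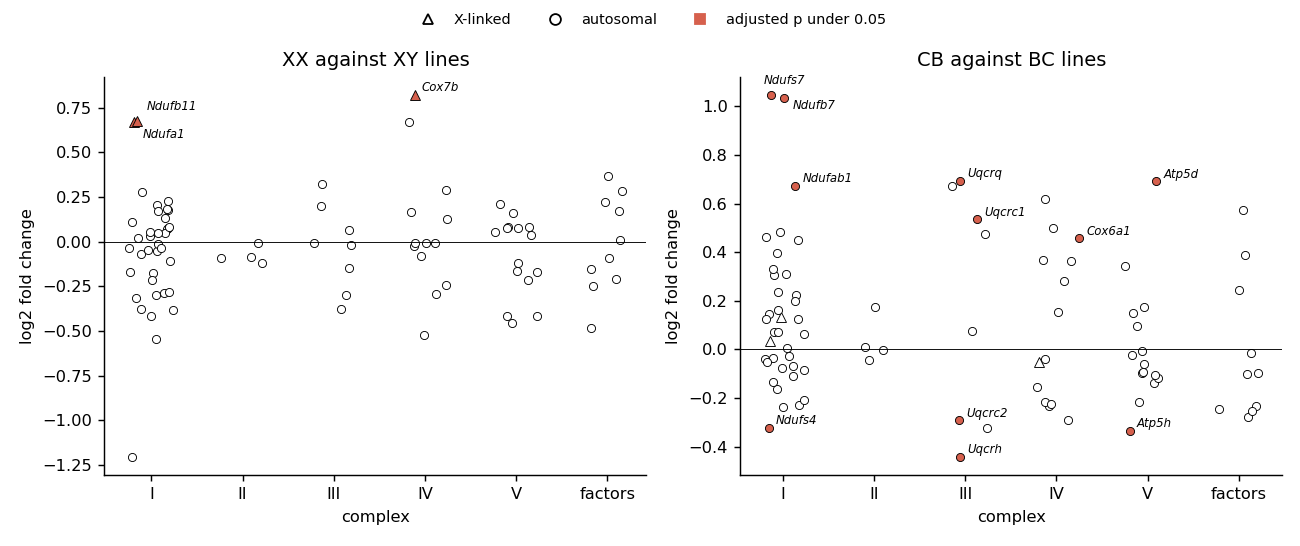
Log2 fold change of each tested member (y axis) by complex (x axis, factors being assembly and other factors) for XX against XY lines (left) and CB against BC lines (right), with triangles for X-linked members and filled symbols for an adjusted p under 0.05; Ndufs5 is left out. On the left only the 3 X-linked members are filled, between 0.67 and 0.82, and on the right 7 autosomal members are filled above 0 and 4 below.

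Some CB lines had higher RNA levels over whole chromosomes. The median deviation of all genes on chromosome 6 was 0.23 in CB XX 1, 0.29 in CB XY 2 and 0.25 in CB XY 3, and the members there had medians of 0.44, 0.12 and 0.12. On chromosome 8 all genes had medians of 0.26 in CB XX 3 and 0.33 in CB XY 1, and the members 0.08 and 0.66. Ndufb7 and Cox4i1 lie on chromosome 8, and the highest value of each was in CB XY 1. On chromosome 1 all genes had a median of 0.30 and the members one of 0.48 in CB XX 1. The part of these shifts in the cross comparison was not tested.

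Several subunits exist as tissue isoforms, and the ES cell lines held mainly the ubiquitous ones. Per kilobase Cox4i1 had a mean of 12959 scaled reads and Cox4i2, the isoform known from lung and from low oxygen, 13.9. Cox6a1 stood at 5272, while the heart and muscle isoform Cox6a2 stood at 1.89. Cox6b1 had 7487 and the testis isoform Cox6b2 441. Cox7a2 had 5512, the heart and muscle isoform Cox7a1 447 and the supercomplex factor Cox7a2l 4240. Cox8a had 8442, and the heart and muscle isoform Cox8b and the testis isoform Cox8c had 7.69 and 5.28.

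**Figure D5:**
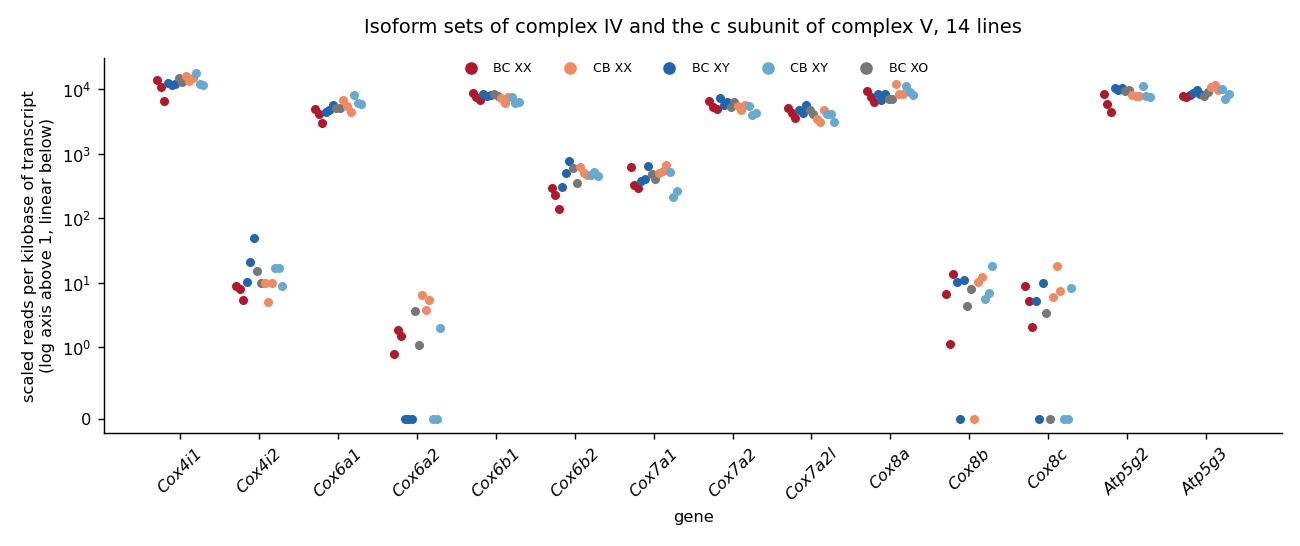
Scaled reads per kilobase of transcript (y axis, logarithmic above 1 and linear below) for isoform sets of complex IV and for Atp5g2 and Atp5g3 in each of the 14 lines, coloured by group. Cox4i1 lies near 12959 and Cox4i2 near 13.9, and points at the bottom are lines in which a gene is listed at 0.

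The 3 genes under the mean of 10 were Cox6a2, Cox8b and Cox8c, with means of 1.25, 2.78 and 2.51 scaled reads over the 14 lines. Just inside was Cox4i2 with a mean of 10.1. Cox4i2 had 6.55, 5.70 and 3.93 scaled reads in BC XX, 7.49, 14.96 and 36.1 in BC XY, 11.2 and 7.11 in BC XO, 7.11, 3.66 and 7.11 in CB XX and 12.1, 12.3 and 6.49 in CB XY lines. Its highest value was in BC XY 3. Cox6b2 was highest in the same line, with 165, 275 and 421 scaled reads in BC XY against 163, 126 and 76.6 in BC XX lines (log2 fold change -1.16 ± 0.34 SE, limma adjusted p = 0.0570). Without BC XX 3 it had -0.88 (adjusted p = 0.240).

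Ndufa4l2, a member by its symbol that is known to be induced in low oxygen and was named after its values were seen, also peaked in BC XY 3. It had 61.3, 28.9 and 30.5 scaled reads in BC XX and 47.5, 244 and 416 in BC XY lines, with a log2 fold change of -2.04 ± 0.61 SE (limma adjusted p = 0.0663), and -1.90 without BC XX 3 (adjusted p = 0.212). The BC XY lines thus held both the highest value of all lines and one below that of BC XX 1.

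The other genes of the pathway were read from lists. Of 33 assembly factors and cytochrome c, 0 were called in XX against XY lines (6 with an unadjusted p under 0.05, limma), and of the 13 tested regulators of mitochondrial biogenesis 0 (2 with an unadjusted p under 0.05). None of the 76 mitochondrial ribosomal protein genes was called either, with 1 under an unadjusted p of 0.05. Of 16 genes of the TCA cycle and pyruvate dehydrogenase 1 was higher, the X-linked Idh3g (log2 fold change 0.83, adjusted p = 0.0166), a subunit of isocitrate dehydrogenase. In the CB cross the X-linked Pdha1, the E1 alpha subunit of pyruvate dehydrogenase, was also higher (0.70, adjusted p = 0.0257). Without CB XY 2 and CB XY 3 neither passed, Idh3g at 0.71 in XX against XY lines (adjusted p = 0.0779) and Pdha1 at 0.82 in the CB cross (adjusted p = 0.154).

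Of 19 glycolysis genes 4 were lower and 0 higher in XX lines and 15 did not pass, where 1.99% of all genes were called lower and 3.21% higher, and the list median was -0.28. The 4 were Aldoc (log2 fold change -1.47, limma adjusted p = 0.0109), Ldhb (-1.40, adjusted p = 0.0455), Pfkl (-0.88, adjusted p = 0.0408) and Pdk1 (-0.82, adjusted p = 0.00174), of which Pfkl and Pdk1 were named after their values were seen. Pdk1, the kinase that holds back pyruvate dehydrogenase, had 3485, 4092 and 3647 scaled reads in BC XX, 6738, 7872 and 6659 in BC XY, 4871, 3719 and 3757 in CB XX and 5925, 8481 and 6093 in CB XY lines. Its XX and XY lines did not overlap. Without CB XY 2 and CB XY 3 Pdk1 (-0.79, adjusted p = 0.00964) and Aldoc (-1.59, adjusted p = 0.0258) were called, and Ldhb (-1.25, adjusted p = 0.156) and Pfkl (-0.87, adjusted p = 0.130) were not. With the mesenchymal covariate the list median was -0.08 and 1 gene was called.

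In CB against BC lines 7 mitochondrial ribosomal protein genes were higher and 1 lower of 76, 2 of 33 assembly factors were higher, and 3 of 14 biogenesis regulators were higher, beside 9.22% of all genes higher and 6.81% lower. Among them were Esrra, a nuclear receptor of mitochondrial genes (log2 fold change 1.20, limma adjusted p = 0.0123), Polrmt, the mitochondrial RNA polymerase (1.08, adjusted p = 0.0133), and Coa6, a complex IV assembly factor (0.56, adjusted p = 0.0459). Without CB XY 2 and CB XY 3 these had 1.29, 1.11 and 0.77, with adjusted p of 0.0640, 0.0767 and 0.0576. In BC XX against BC XY lines Mrpl12 (-1.19, adjusted p = 0.0356) and Cs, citrate synthase (-0.60, adjusted p = 0.0488), were lower, and without BC XX 3 they had -0.99 (adjusted p = 0.157) and -0.61 (adjusted p = 0.132). Esrra and Polrmt transcripts have 61.8% and 60.9% GC, in the highest GC bin.

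Promoters were searched for the motifs of factors known to act on mitochondrial genes. RefSeq promoters (GRCm38.p6, 250 bases before to 50 after the start) were matched for 75 of the 89 members. An 8-letter form of the NRF1 motif, GCATGCGC, on either strand, was present for 12 of the 75 members (16.0%) and for 3.05% of all 27025 genes. The YY1 motif AAGATGGCG, on either strand, was present for 8 (10.7%) and 1.64%, and the GABP motif CCGGAAGTG, on either strand, for 2 (2.67%) and 2.25%. None of the motifs contains another. Members called in different directions are shown as examples, 5′ to 3′ on the strand of the gene, with the motif in capitals.
Cox6a1 (promoter chr5:115348909-115349208): caggaacgggGCGCATGCgcgctctcgc
Ndufs7 (promoter chr10:80249199-80249498): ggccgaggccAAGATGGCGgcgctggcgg
Ndufs4 (promoter chr13:114388045-114388344): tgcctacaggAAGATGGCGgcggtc
Cox6a1 and Ndufs7 were higher and Ndufs4 lower in CB lines, so that a shared motif went with opposite directions. The YY1 matches of Atp5j2, Ndufa9, Ndufc1, Ndufs4, Ndufs6 and Ndufs7 lay 22 to 35 bases after the start. That of Atp5j lay 88 bases before it, and that of Atp5sl 26 after or 53 before, depending on the promoter. In Ndufs7 the match overlaps the beginning of the coding sequence shown above, so that it may be a start of translation. The part of such starts in the YY1 share was not tested. A match describes letters only, and binding was not measured.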

How the data were processed

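RNA from 14 lines was measured by stranded total RNA sequencing with ribosomal RNA removed. According to the labels and methods the authors aligned reads with TopHat2 to mm9 and used Cuffdiff of the Cufflinks suite. Versions and the gene annotation are not given in the sources used here. The deposited values are a signal, reads per gene after a factor for each line, so no count model was used. CB XX lines are numbered by column.

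Genes with at least 10 scaled reads in as many lines as the smaller group (2 in the model of 5 groups) were tested with limma 3.58.1 in R 4.3.3 (trend, two-sided) on log2(value + 5), p-values adjusted by Benjamini-Hochberg across every gene tested, and a threshold of 0.05. A fold change on this scale understates changes of low genes. Counts with an unadjusted p under 0.05 are given without the share over all genes and do not show an excess. XX against XY was fitted on 12 lines, all else on 14. Left out were 13 genes listed at 0 throughout a group but with a mean of at least 100 in another. Location, length and GC content come from 1 NCBIM37 (mm9) coding transcript per gene, and the corrections remove a smoothing spline (5 degrees of freedom) within each line. The fit was tested on simulated data.

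Named were X-linked members, the highest per length in each complex, isoform sets, up to 5 called members each way per comparison, those of extreme SD or with a mean next to 10, and up to 2 called genes each way from other lists. Members and lists were chosen with earlier results of these data known. Lines, each from 1 embryo, are the replicates, and sequencing batches were not assigned to lines.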

Additional observations from a re-analysis of the deposited data

Results flagged for a closer look

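In 58 sets of 6 lines (the XX or the XY lines, for each named member) the line at either end was compared with its neighbour by Dixon's criterion, which chance meets in about 1 of 20 sets, and 2 sets were picked out. Cox4i1, the ubiquitous subunit 4 of complex IV, had 12142 scaled reads in CB XY 1, with the next XY line at 8614 and the lowest at 7903. Cox4i1 lies on chromosome 8, where the median deviation of all genes in CB XY 1 was 0.33, and its transcript has 56.4% GC. The part of either in this value was not tested. Cox4i2 had 36.1 scaled reads in BC XY 3, with the next XY line at 14.96 and the lowest at 6.49. No member passed the threshold for the interaction of complement and cross.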

How the results depend on the processing

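Of 500 refitted log2 fold changes of 23 named results, 0 changed direction, 381 kept their side of the threshold, 108 fell below it and 11 passed it. Some of these fits left out only lines outside the groups compared. There the fold change could not move, so that the 0 says nothing for those fits. Median ratio scaling was chosen after seeing the data. Its factors were only 1.00005 to 1.01416, so that it could hardly change a count. With it and with a pseudocount of 1 every count of called members stayed within 1.5 times. For XX against XY lines the count of 3 became 1 with the GC correction, beside 908 of all 14375 genes. It became 1 without CB XY 2 and CB XY 3, beside 313 of all 15557 genes. It was 4 with the cross as a covariate. For BC XX against BC XY lines the count of 1 became 0 with no filter on low values and 3 with the GC correction. It became 5 with the length correction and 0 with the mesenchymal covariate. Over all genes the calls went from 928 of 16263 to 716 of 21341, 1109 of 15172, 993 of 15172 and 8 of 16263, in that order. For CB XX against CB XY lines 2 became 0 without CB XY 2 and CB XY 3. For BC XX against BC XO lines 0 became 4 with the length correction, where the calls over all genes went from 759 of 16263 to 893 of 15172. For CB against BC lines 11 became 4 with the GC correction, 20 with the length correction and 1 with the mesenchymal covariate. Over all genes the calls went from 2607 of 16263 to 815 of 15172, 2699 of 15172 and 468 of 16263, in that order. For the fit without CB XY 2 and CB XY 3, in which 1 CB XY line remains, the fold changes are given above. Without CB XY 2 and CB XY 3 fewer lines enter, the mesenchymal level does not overlap between BC XX and BC XY lines, and for the others the cause was not tested.

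Leaving out 1 line at a time gave 2 to 4 members for XX against XY, 0 to 5 for BC XX against BC XY, 1 to 4 for CB XX against CB XY, 0 to 7 for BC XX against BC XO, 0 for BC XO against BC XY and for the interaction, and 4 to 19 for CB against BC lines. The lowest of these last, 4, was without CB XX 1, beside 1225 of all 16230 genes. The highest, 19, was without BC XX 1, beside 3149 of all 16232 genes. Without BC XX 1, 5 members were called in BC XX against BC XY and 7 in BC XX against BC XO lines. Beside them stood 973 and 991 of all 16232 genes. Of BC XX against BC XY members 3 were called without BC XY 1, and 0 without BC XX 2, BC XX 3, BC XY 2, BC XY 3, BC XO 1 or BC XO 2. Over all genes the calls without these lines were 993, 345, 230, 234, 487, 730 and 729, in that order. In CB against BC lines 18 were called without CB XX 3, beside 3658 of all 16223 genes. The count was 7 without BC XY 2, CB XX 2 or CB XY 3, beside 1969, 1923 and 1856 of all genes. It was 6 without BC XX 2, BC XY 1 or CB XY 2, beside 1835, 1920 and 1630 of all genes. It was 5 without BC XX 3 or CB XY 1, beside 1280 and 1745 of all genes. Ndufs5, whose values may be failed estimates, is among the members called without CB XX 3 and among those called without CB XY 2. In CB XX against CB XY lines 1 member was called without CB XX 2, CB XY 1, CB XY 2 or CB XY 3. Over all genes the calls there were 147, 138, 210 and 376, in that order. Without CB XX 1 there were 4 members, beside 579 of all 16230 genes.

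Deviations of same-numbered BC XX and BC XY lines correlated at -0.17, 0.25 and -0.05 over genes, and of differently numbered ones at -0.18 to 0.16. Same-numbered BC XX and BC XO lines had 0.09 and 0.13, and BC XY and BC XO lines -0.49 and 0.04. So few lines cannot decide whether equal numbers mark pairs. With the replicate block the 8 BC lines gave 0 members in BC XX against BC XY lines, beside 506 of all 15859 genes. Without it they gave 0 beside 947. For BC XX against BC XO lines it was 0 beside 13 with the block and 0 beside 674 without. Planned count models and a scaling that needs counts were not run, since the values are not counts. Depth limits the isoforms near 0, where 3 reads correspond to 1.22 to 7.37 scaled reads, a floor that covers counting error only.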
